A study of Mus musculus with 22 samples.

Results

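Apelin (*Apln*) and its receptor (*Aplnr*) are the 2 genes described here, out of 24454 genes counted in endothelial and blood-forming cells of the mouse aorta-gonad-mesonephros (AGM). They were chosen by their read counts, which differed between CD44Neg and the other sorted populations, so their levels in CD44Neg cells against the other populations are given as a description, with no test. The AGM is the region of the mid-gestation embryo in which endothelial cells give rise to haematopoietic stem and progenitor cells. All cells came from untreated C57BL/6 embryos, were not cultured and were sorted as VE-Cad+, VE-cadherin being an adhesion protein of endothelial junctions, and then by CD44, a hyaluronan receptor, and by Kit, the receptor of stem cell factor. Each of the 22 libraries was made from 25 cells. CD44Neg cells gave 10 libraries, of which 4 were from E9.5, 3 from E10 and 3 from E11. CD44LowKitNeg cells gave 6 libraries, with 1 from E9.5, 2 from E10 and 3 from E11. CD44LowKitPos cells gave 1 library from E9.5 and 2 from E10, and CD44High cells gave 3 libraries, all from E11.

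Apelin is a secreted peptide cut from a longer precursor, and its receptor is a G protein-coupled receptor on the cell surface. In developing vessels the ligand is known as a gene of sprouting tip cells and of low oxygen, while the receptor is known from veins and from the endothelium that forms new vessels. The receptor signals through inhibitory G proteins, Gα13 and β-arrestins, and it is also bound by the small peptide made from *Apela*.

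In the mouse genome (GRCm38), *Apln* lies on chromosome X from 48025146 to 48034853 on the minus strand, with 3 exons that give a transcript of 3149 bases. Its coding sequence has 234 bases on 2 exons and encodes 77 residues, so most of the transcript is 3′ UTR (2567 bases). *Aplnr* lies on chromosome 2 from 85136225 to 85139923 on the plus strand, has a transcript of 3699 bases and encodes 377 residues within 1 exon. *Apela* lies on chromosome 8 from 65028417 to 65037336 on the minus strand and encodes 54 residues. No other annotated gene overlapped *Apln* or *Aplnr*, whereas *Apela* overlapped Gm45886 on the same strand. The coding sequences of both ligands, read from the GENCODE annotation of GRCm38, are shown to give the size of both precursors and where the mature peptide lies. Capitals mark the last 13 codons of *Apln*, which encode the C-terminal peptide apelin-13.
Apln: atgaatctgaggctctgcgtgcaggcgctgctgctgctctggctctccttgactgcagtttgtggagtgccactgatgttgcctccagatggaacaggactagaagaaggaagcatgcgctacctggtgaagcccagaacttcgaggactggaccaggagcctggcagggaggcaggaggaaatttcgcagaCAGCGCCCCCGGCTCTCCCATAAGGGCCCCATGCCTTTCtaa
Apela: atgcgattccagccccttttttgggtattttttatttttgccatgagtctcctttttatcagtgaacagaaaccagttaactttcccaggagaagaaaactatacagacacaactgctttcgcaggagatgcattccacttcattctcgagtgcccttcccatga

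Between 3912350 and 8657546 reads were counted per library (median 5758382.5). Libraries of the same population and stage differed by far more than counting error, with a chi-square per degree of freedom of 16.997 to 85.162 over 20 pairs. The labels do not say that libraries came from separate embryos, so the p-values below measure only the spread between these libraries. A code in the labels that reads as a date changes with the stage, and the stages cannot be told apart from it. Values are CPM, the usual library-size scale, after TMM scaling (normalized CPM). Where a library had 0 reads of a gene, a level of up to 3 reads could not be told from none, which is 0.348 to 0.816 normalized CPM per library and covers counting error only. *Cd44* was at 2.14 to 58.9 normalized CPM in CD44Neg and at 158 to 349 in CD44LowKitNeg. *Kit* was at 51.0 ± 18.4 in CD44Neg and 46.9 ± 17.3 in CD44LowKitNeg (SD, n = 10 and 6). *Cdh5*, which encodes VE-cadherin, had 0 reads in the 3 CD44High libraries, against 73.5 to 1158 normalized CPM in the 19 other libraries. The 8 macrophage markers examined summed to 1683 to 4525 normalized CPM in CD44High and to at most 53.9 elsewhere.

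*Apln* was read in every CD44Neg library and in 1 of the 12 libraries outside CD44Neg. At E9.5 the 4 CD44Neg libraries had 32.0 (replicate 4), 15.5 (replicate 5), 20.1 (replicate 6) and 47.6 normalized CPM (replicate 7). At E10 the 3 libraries had 16.5 (replicate 8), 28.2 (replicate 9) and 26.3 (replicate 10). At E11 they had 29.4 (replicate 1), 29.0 (replicate 2) and 4.96 (replicate 3). The stages overlapped, and even the lowest library held 32 *Apln* reads. In CD44LowKitNeg, *Apln* had 0 reads in all 6 libraries. It also had 0 reads in the 2 CD44LowKitPos libraries from E10 and in the 3 CD44High libraries. The exception was the CD44LowKitPos library from E9.5 (replicate 19), with 5 reads or 0.754 normalized CPM. Set against 3 reads in the library where they weigh most, the CD44Neg mean of 25.0 ± 11.5 normalized CPM (SD, n = 10) was at least 49.6-fold higher than in CD44LowKitNeg and at least 30.6-fold higher than in CD44High. Within stages, the CD44Neg mean was at least 82.9-fold above CD44LowKitNeg at E9.5 (1 CD44LowKitNeg library), 47.0-fold at E10 and 45.4-fold at E11. These bounds hold for the means and leave out the spread of CD44Neg, whose lowest library had 4.96 normalized CPM. In samples of sorted cells, fewer cells that make a transcript and less of it per cell cannot be told apart.

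*Aplnr* was read in every CD44Neg library and in 7 of the 12 libraries outside CD44Neg. At E9.5 the CD44Neg libraries had 433 (replicate 4), 366 (replicate 5), 377 (replicate 6) and 324 normalized CPM (replicate 7). At E10 they had 798 (replicate 8), 565 (replicate 9) and 517 (replicate 10), all above the 4 libraries from E9.5. At E11 they had 711 (replicate 1), 633 (replicate 2) and 347 (replicate 3), from within the range of E9.5 to within that of E10. In CD44LowKitNeg, the 3 libraries from E11 had 0 (replicate 11), 1.04 (replicate 12) and 0 (replicate 13) normalized CPM. The library from E9.5 (replicate 14) had 1.51. The 2 libraries from E10 stood apart, with 24.7 in replicate 15 and 108 in replicate 16. *Aplnr* was thus near 0 in 4 of the 6 libraries, and even the highest lay below the lowest CD44Neg library. In CD44LowKitPos, it had 0 reads in both libraries from E10 and 3.77 normalized CPM at E9.5 (replicate 19, the library that also held *Apln* reads). The CD44High libraries had 0.792 (replicate 20), 0 (replicate 21) and 9.52 (replicate 22).

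**Figure D1:**
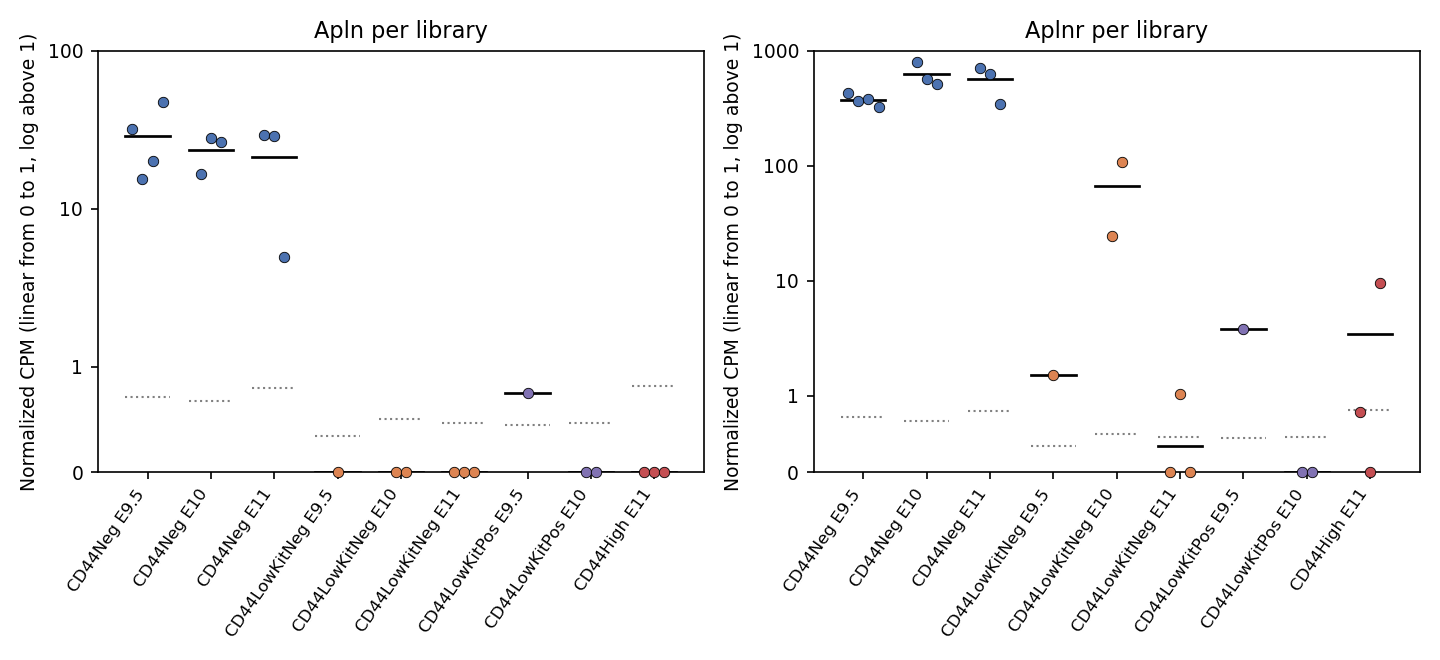
Normalized CPM of *Apln* (left) and *Aplnr* (right) in each of the 22 libraries, by population and stage, on an axis that is linear from 0 to 1 and logarithmic above. Points are libraries, solid lines group means and dotted lines the highest limit that a count of 0 allows in the group. All *Apln* points outside CD44Neg lie at 0 except 1 at 0.754, and the *Aplnr* points of CD44LowKitNeg run from 0 to 108.

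On average *Aplnr* was at 507 ± 166 normalized CPM in CD44Neg (SD, n = 10), 22.6 ± 43.0 in CD44LowKitNeg (n = 6), 1.26 in CD44LowKitPos and 3.44 ± 5.28 in CD44High (n = 3). The mean was 22.5 times higher in CD44Neg than in CD44LowKitNeg, and 93.2 times higher without CD44LowKitNeg replicate 16. At E10 the ratio was 9.43, with 25.4 without CD44LowKitNeg replicate 16 and 5.79 without replicate 15, values added after the data were seen. At the other stages the CD44LowKitNeg libraries held 0 to 13 *Aplnr* reads each, too few for a ratio. From highest to lowest, the *Aplnr* means followed the order CD44Neg E10 (627 ± 150, n = 3), CD44Neg E11 (563 ± 192, n = 3), CD44Neg E9.5 (375 ± 44.8, n = 4), CD44LowKitNeg E10 (24.7 and 108), CD44LowKitPos E9.5, CD44High E11, CD44LowKitNeg E9.5, CD44LowKitNeg E11 and CD44LowKitPos E10. The ranges of the first and the second of these groups overlapped, as did those of the second and the third. From the fifth place down, the single libraries lay within the range of CD44High, and the order among these groups is within the spread. For *Apln*, the order was CD44Neg E9.5 (28.8 ± 14.3, n = 4), CD44Neg E10 (23.7 ± 6.29, n = 3) and CD44Neg E11 (21.1 ± 14.0, n = 3), with overlapping ranges, followed by CD44LowKitPos E9.5 and the 5 groups at 0.

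The fits across all genes gave these differences no independent support, because they had chosen the genes. Between CD44LowKitNeg and CD44Neg, 10.2% of 11022 genes passed an adjusted p under 0.01, and in 3.08% every CD44LowKitNeg library lay below every CD44Neg library, as both *Apln* and *Aplnr* did. The fitted log2 difference of *Aplnr* was −4.48 in this contrast.

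Stages were compared by a test within CD44Neg, although the genes had been chosen with their values at these stages known, so the tests are not independent evidence. Adjusted p-values here and below come from the quasi-likelihood F-test of edgeR, corrected over all genes tested by the Benjamini-Hochberg method, and a gene was called below 0.01. No difference between stages passed for *Apln*, with a log2 value of −0.44 between E11 and E9.5 (SE 0.57, edgeR adjusted p = 0.80). It was −0.27 between E10 and E9.5 (SE 0.57, adjusted p = 0.90) and −0.17 between E11 and E10 (SE 0.61, adjusted p = 0.98). These standard errors leave room for changes of either sign. *Aplnr* was 0.75 higher at E10 than at E9.5 on the log2 scale (SE 0.22), and 3 of 3 libraries from E10 lay above 4 of 4 from E9.5, but the adjusted p was 0.119. Only 2 of 11250 genes (0.0178%) passed in that comparison. At E11, *Aplnr* was 0.60 above E9.5 (SE 0.22, adjusted p = 0.169), where 0.684% of genes passed, and differed from E10 by −0.15 (SE 0.24, adjusted p = 0.94). Between E11 and E10, edgeR called 0 genes (0.0%), with 977 at an unadjusted p under 0.05, while DESeq2's Wald test called 45 and limma voom 4.

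Within CD44LowKitNeg, the stages of *Aplnr* were not tested, since the gene passed the filter on low counts only through the earlier libraries, and the same reads enter a comparison of the population difference between stages. The E11 libraries held 0, 8 and 0 reads, against 13 at E9.5 (replicate 14) and 147 and 800 at E10 (replicates 15 and 16). The earlier group was not uniform, since the E9.5 library lay just above those of E11 and far below those of E10. *Apln* did not pass the filter in CD44LowKitNeg.

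Between CD44High and CD44LowKitPos, too few reads were counted for a comparison of either gene. *Apln* had 5 reads in CD44LowKitPos replicate 19 and 0 in the 5 other libraries. *Aplnr* had 25 reads in the same replicate and 0 in the 2 others of CD44LowKitPos, against 4, 0 and 35 in CD44High, so the populations overlapped. No stage holds both populations. CD44LowKitPos replicate 19 was set apart in other genes too, as its endothelial markers summed to 2409 normalized CPM, against 1126 and 1610 in the other CD44LowKitPos libraries.

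Levels of ligand and receptor can be compared only per length of transcript. In CD44Neg, *Aplnr* was at 137 ± 44.8 normalized CPM per kilobase of exon (SD, n = 10) and *Apln* at 7.93 ± 3.66, and the receptor exceeded the ligand in 10 of 10 libraries. The ratio ran from 5.80 in replicate 7 to 59.5 in replicate 3, with a median of 17.8. As a share of the reads of both genes, *Apln* took 12.8% in replicate 7 (95% exact Clopper-Pearson interval 11.5 to 14.2, of 2593 reads) and 1.41% in replicate 3 (0.966 to 1.98, of 2270 reads), so the libraries of 1 population differed beyond counting error. In CD44LowKitNeg replicate 16, 0 of 800 reads were *Apln* (upper bound 0.46%), and in replicate 15 0 of 147 (upper bound 2.48%). The 0 reads of *Apln* in CD44LowKitNeg are among the values by which the genes were chosen, so these bounds are descriptions and test no difference from CD44Neg. These intervals cover counting error only, since the reads carry no molecular identifiers.

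**Figure D2:**
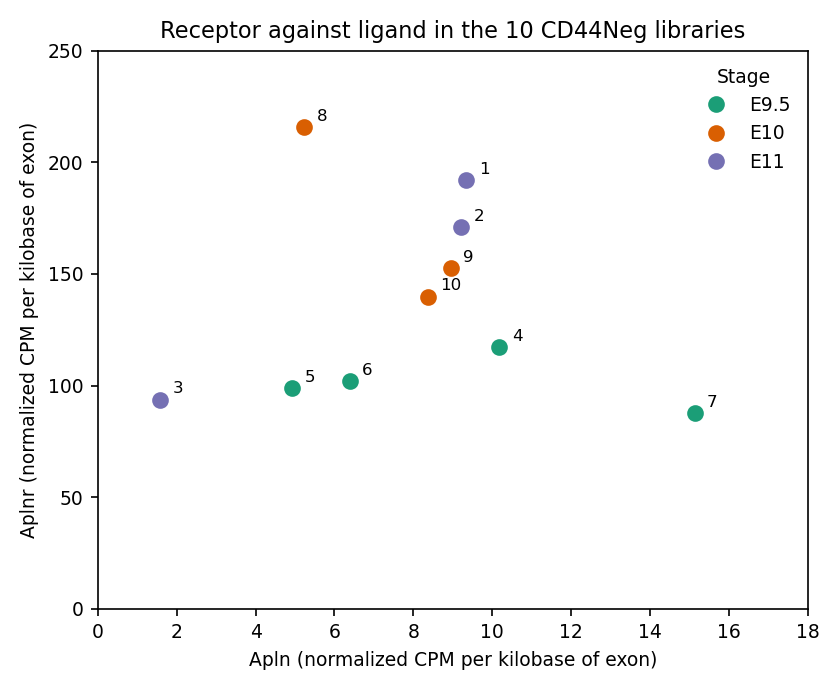
*Aplnr* against *Apln* in the 10 CD44Neg libraries, both in normalized CPM per kilobase of exon, coloured by stage and numbered by replicate. Each point is a library, and *Apln* spans 1.57 to 15.1 while *Aplnr* spans 87.7 to 216, with the highest ligand level in a library (replicate 7) that has the lowest receptor level.

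Across the 10 CD44Neg libraries, ligand and receptor did not vary together in a way that the test could tell from 0. Pearson's r of log2 CPM was 0.198 (permutation p = 0.62, adjusted p = 0.84) and Spearman's rho 0.079 (permutation p = 0.84, adjusted p = 0.84; 2 coefficients of 1 relation, two-sided, 100000 permutations). Without replicates 1 and 8, the 2 libraries farthest from the median of *Aplnr*, r was 0.322. After centring within each stage it was 0.520 (permutation p = 0.126). Without replicate 3, the library with the least *Apln*, r turned to −0.217.

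The second ligand, *Apela*, was read in 4 of the 22 libraries, spread over 3 populations. It had 39 reads (7.59 normalized CPM) in CD44Neg replicate 2, 2 reads in CD44Neg replicate 3, 18 reads (2.09) in CD44LowKitNeg replicate 14 and 67 reads (13.3) in CD44High replicate 20. How reads shared with Gm45886 were treated in the counting is not given in the sources used here, and their part in the *Apela* counts was not tested. No population had *Apela* reads in most of its libraries, and it did not pass the filter in the comparison of the endothelial populations.

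Among the genes that cut apelin peptides or their precursors, 3 were measured well enough to be tested between CD44LowKitNeg and CD44Neg. *Furin*, the proprotein convertase that releases apelin from its precursor, was higher in CD44LowKitNeg. It had a median of 12.6 normalized CPM in CD44Neg (7.15 to 17.9, n = 10) and 36.6 in CD44LowKitNeg (11.8 to 62.5, n = 6), a log2 difference of 1.68 (SE 0.34, edgeR adjusted p = 0.00149). The call was lost with limma voom (adjusted p = 0.0139) and among the E11 libraries alone (0.0375). The E9.5 library of CD44LowKitNeg, at 11.8, lay within the range of CD44Neg and the 5 others above it. In the CD44LowKitNeg libraries, then, the convertase was read while the ligand was at 0. *Furin* was at 6.82 to 11.2 normalized CPM in CD44LowKitPos and 3.73 to 5.94 in CD44High, with a log2 difference of −2.92 from CD44LowKitNeg (SE 0.55, adjusted p = 3.1e-04; lost with limma voom).

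*Ece1*, the endothelin-converting enzyme, was at 212 ± 46.4 normalized CPM in CD44Neg and 218 ± 90.9 in CD44LowKitNeg (0.05, SE 0.23, edgeR adjusted p = 0.92). It was lower in CD44LowKitPos, at 24.7, 27.2 and 118 normalized CPM, than in CD44LowKitNeg (−1.94, SE 0.46, adjusted p = 0.0084), a comparison in which 4.26% of genes passed. This call was lost without CD44LowKitPos replicates 17 or 18 or CD44LowKitNeg replicates 11, 12 or 13, its E11 libraries (adjusted p up to 0.0761). CD44LowKitPos has no library from E11, so the populations are not matched for stage. The call held with stage as a covariate. *Ece1* was at 9.11 to 24.2 in CD44High (−3.83 against CD44LowKitNeg, SE 0.52, adjusted p = 7.7e-06), where 16% of genes passed. *Prcp*, a carboxypeptidase that trims the C terminus of apelin, was read in all 22 libraries. It was at 286 ± 99.4 in CD44Neg and 301 ± 113 in CD44LowKitNeg (0.08, SE 0.24, adjusted p = 0.86) and lower in CD44High, at 101 to 141 (−1.39 against CD44LowKitNeg, SE 0.33, adjusted p = 0.00303; lost without CD44High replicate 20 or 21). Within CD44Neg, *Prcp* was 1.02 higher at E11 than at E9.5 (SE 0.18, adjusted p = 0.0094), with 3 of 3 libraries above 4 of 4, although this call was lost without any single library (adjusted p up to 0.058). *Klkb1*, which encodes plasma kallikrein, had 0 reads in all 22 libraries, and *Mme*, which encodes neprilysin, reached at most 6.49 normalized CPM.

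**Figure D3:**
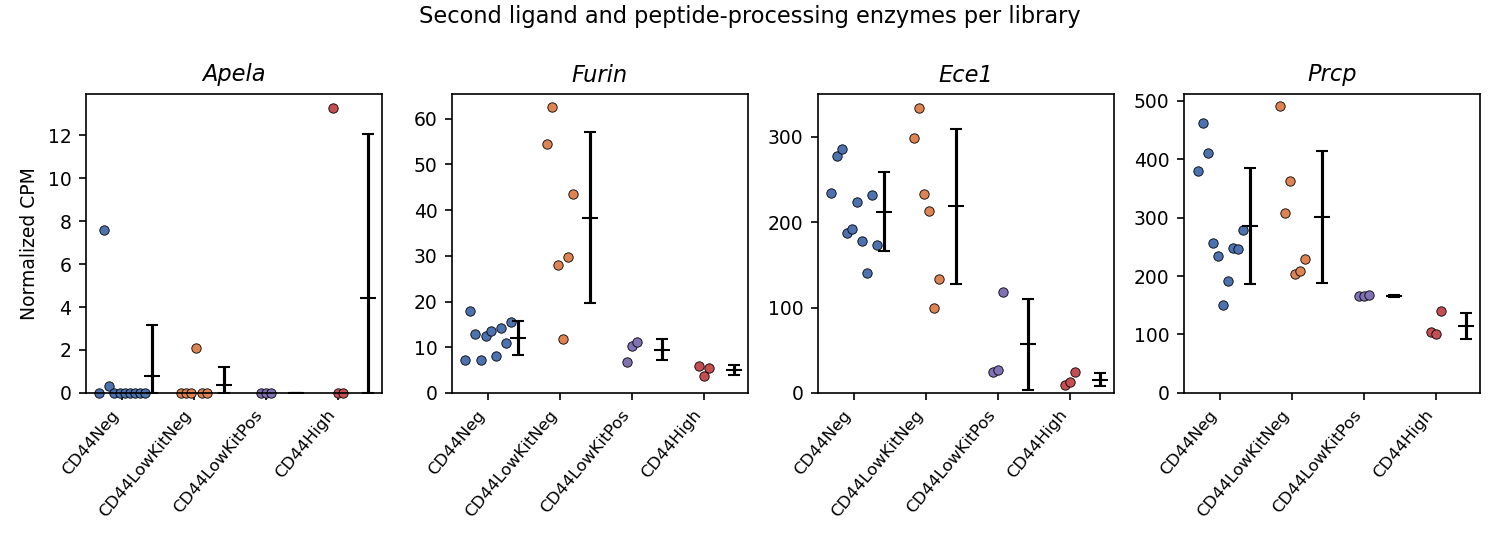
Normalized CPM of *Apela*, *Furin*, *Ece1* and *Prcp* in each library by population, with points for libraries and bars for the mean ± SD (drawn down to 0 at most). *Furin* is highest in CD44LowKitNeg (mean 38.4), *Ece1* and *Prcp* have means of 212 and 286 in CD44Neg and of 218 and 301 in CD44LowKitNeg, and *Apela* is at 0 in 18 of the 22 libraries.

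Of 23 tested genes through which the receptor signals, 1 was higher and 0 lower in CD44LowKitNeg than in CD44Neg, where 10.2% of all genes were called. The median log2 difference was 0.12, against 0.005 over all genes. The gene that passed was *Fgfr1*, an FGF receptor, which went from 42.6 ± 11.6 normalized CPM in CD44Neg to 119 ± 46.7 in CD44LowKitNeg (1.48, SE 0.25, edgeR adjusted p = 3.6e-04). The G protein subunits *Gnai2* (−0.47, SE 0.16, adjusted p = 0.0478) and *Gna13* (−0.83, SE 0.35, adjusted p = 0.103) did not pass. The arrestins *Arrb1* (0.46, SE 0.51) and *Arrb2* (0.07, SE 0.70) did not pass either. The same held for *Mef2c* (−0.24, SE 0.17) and *Klf2* (0.22, SE 0.35), transcription factors downstream of the receptor, for *Hdac5* (−0.90, SE 1.03), a histone deacetylase that it regulates, and for *Nos3* (0.87, SE 0.33, adjusted p = 0.066), the endothelial nitric oxide synthase. *Fgf2* had 0 reads in all 22 libraries. *Mef2c* was read at 139.5 ± 20.7 normalized CPM in CD44Neg and 117 ± 31.0 in CD44LowKitNeg, so *Mef2c* was read in libraries with and without *Aplnr* reads.

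In CD44LowKitPos, 0 of 24 of these genes were higher and 1 lower than in CD44LowKitNeg, where 1.71% of all genes were lower. Against CD44Neg, 3 of 24 were higher and 5 lower in CD44High, where 7.14% of all genes were higher and 7.25% lower. *Arrb2* was 3.01 higher (SE 0.65, edgeR adjusted p = 0.00128; lost without CD44High replicate 21 or 22) and *Mef2c* 1.10 higher (SE 0.21, adjusted p = 3.4e-04; lost without replicate 21). *Nos3* differed by −3.05 between CD44LowKitPos and CD44LowKitNeg (SE 0.60, adjusted p = 0.00272; lost without CD44LowKitPos replicate 17 or 18, with limma voom and with stage as a covariate) and by −3.49 between CD44High and CD44LowKitPos (SE 0.74, adjusted p = 0.00379; lost without CD44LowKitPos replicate 19 or CD44High replicate 20 or 21 and with limma voom). In the same contrast, where 3.01% of 12949 genes passed, *Fgfr1* differed by −3.40 (SE 0.68, adjusted p = 0.00236; lost without CD44High replicate 20 and with limma voom). The macrophage markers given above move with each difference of CD44High, and their part in it was not tested.

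Some venous genes were lower and most arterial genes higher in CD44LowKitNeg than in CD44Neg. Of the 5 venous genes, 3 were lower and 0 higher (median log2 difference −1.93), against 5.23% lower and 4.94% higher among all genes. *Nrp2*, a co-receptor of VEGF-C, was at 81.4 ± 39.3 normalized CPM in CD44Neg and 2.02 ± 2.60 in CD44LowKitNeg (−5.30, SE 0.81, edgeR adjusted p = 1.6e-04). *Nr2f2*, which encodes the venous transcription factor COUP-TFII, went from 128 ± 50.8 to 7.88 ± 16.7 (−4.01, SE 0.93, adjusted p = 0.00441; lost without CD44LowKitNeg replicate 11 or 12, adjusted p up to 0.0114, and −6.85 without replicate 16). *Flt4*, the receptor of VEGF-C, went from 306 ± 66.5 to 80.0 ± 27.9 (−1.93, SE 0.24, adjusted p = 1.7e-05). Every CD44LowKitNeg library lay below every CD44Neg library in these 3 of the 5 genes, against 3.08% of all genes. *Emcn* (−0.57, SE 0.19, adjusted p = 0.0378) and *Ephb4* (−0.43, SE 0.31, adjusted p = 0.362) did not pass, although *Emcn* did with stage as a covariate (−0.68, adjusted p = 0.0094).

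Of the 13 arterial genes, 8 were higher and 0 lower (median 1.97), and in 7 of the 13 every CD44LowKitNeg library lay above every CD44Neg library, against 2.5% of all genes. The largest differences were those of *Hey2* (4.10, SE 0.54), a target of Notch, *Bmx* (3.77, SE 0.67), a kinase of arterial endothelium, and *Jag1* (3.18, SE 0.29), a Notch ligand. The gap junction genes *Gja5* (2.49, SE 0.29) and *Gja4* (1.97, SE 0.30), the arterial ligand *Efnb2* (2.03, SE 0.16), *Hey1* (1.81, SE 0.23) and the VEGF co-receptor *Nrp1* (1.53, SE 0.15) also passed. *Cxcl12* (2.90, SE 0.95), *Dll4* (1.21, SE 0.38), *Sox17* (1.14, SE 0.30, edgeR adjusted p = 0.0109), *Unc5b* (0.68, SE 0.33) and *Notch1* (0.57, SE 0.34) did not. *Sox17* was called in 9 of the 23 alternatives and *Dll4* by DESeq2 (adjusted p = 0.0082). Among the E11 libraries alone, the calls of *Bmx* (adjusted p = 0.0288) and *Hey1* (0.0209) were lost. Sums of other marker lists also lay apart between the populations. The 10 haematopoietic markers summed to 22.0 to 51.9 normalized CPM in CD44Neg and 103.9 to 356 in CD44LowKitNeg, with *Ptprc* at no more than 0.129 in any of these libraries. The 8 mesenchymal markers summed to 0.465 to 105 and 140.9 to 293, with *Col1a1* and *Wt1* at 0, and the 6 neural markers to 23.9 to 110.3 and 111 to 689, with *Elavl3* and *Neurod1* at 0. Single genes made up much of these sums, and they were named after their values were seen. *Acta2* was at 0 to 105 normalized CPM in CD44Neg and 76.5 to 289 in CD44LowKitNeg (2.65, adjusted p = 0.0359), *Stmn2* at 20.7 to 106 and 111 to 683 (2.48, adjusted p = 1.2e-04) and *Laptm5* at 8.34 to 42.6 and 24.7 to 150.3. Between these populations, 2 of 6 tested haematopoietic markers, 0 of 4 mesenchymal and 1 of 2 neural were called higher, against 4.94% of all genes. The part of these transcripts in the differences was not tested.

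In the later populations, the venous and arterial genes called were all lower. Against CD44Neg, 4 of 5 venous genes and 0 of 13 arterial genes were lower in CD44LowKitPos, where 1.41% of all genes were lower. The arterial genes had a median log2 difference of −1.36. They summed to 57.7 and 201 normalized CPM in the CD44LowKitPos libraries from E10 and to 1466 in that from E9.5, against 988 to 2174 in CD44Neg. Against CD44LowKitNeg, 2 of 13 arterial genes were lower in CD44LowKitPos (1.71% of all genes) and 12 of 13 in CD44High (8.17% of all genes), where all 11 endothelial markers were lower too. Of 11 genes of other vasoactive peptide systems, 6 were lower in CD44LowKitPos and 8 in CD44High than in CD44LowKitNeg. The 8 macrophage markers were all higher in CD44High than in CD44LowKitNeg (7.79% of all genes), and their part in these counts was not tested.

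**Figure D4:**
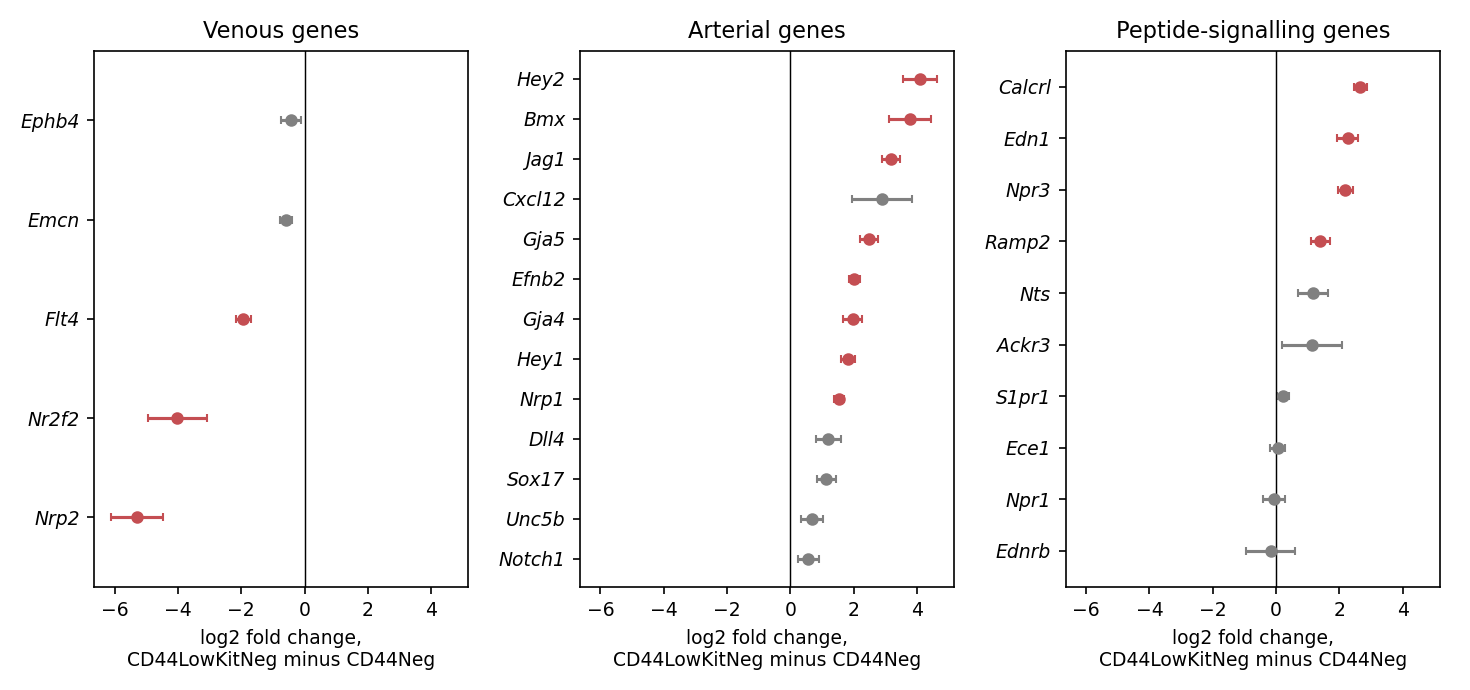
Log2 fold change of CD44LowKitNeg minus CD44Neg for the tested venous, arterial and peptide-signalling genes, with bars for ± 1 SE from edgeR. Red points passed an adjusted p under 0.01 over all genes and grey points did not: 3 venous genes lie to the left, and 8 arterial and 4 peptide-signalling genes to the right.

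The CD44LowKitNeg library with the most *Aplnr*, replicate 16 from E10, also had the most *Nr2f2*. *Nr2f2* was at 41.9 normalized CPM there, 32.6% of the CD44Neg mean, against 0 to 3.09 in the other 5 libraries, and *Aplnr* stood at 21.3% of its CD44Neg mean. *Ramp3* was at 42.5% (3.92 normalized CPM) in the same library. It is among the genes most like *Aplnr* over libraries that include this one, so its level here is no separate evidence. *Nrp2* did not follow, with 3.82% in replicate 16 and 7.98% in replicate 14, and *Flt4* was at 20.7% in replicate 16 against 11.1% to 36.4% in the others. *Apln* was at 0% in replicate 16. Replicate 15, the other library from E10, had *Aplnr* at 4.86% of the CD44Neg mean and *Nr2f2* at 0%. The arterial genes of replicate 16 summed to a level within the range of CD44LowKitNeg, since the 2 libraries from E10 had 4198 and 4372 normalized CPM, against 988 to 2174 in CD44Neg. *Ephb4* was at 61.0% in replicate 16 against 38.1% to 113% in the others, and *Emcn* at 68.5% against 29.4% to 94.0%. The cause of the *Nr2f2* and *Aplnr* values of replicate 16 was not tested.

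**Figure D5:**
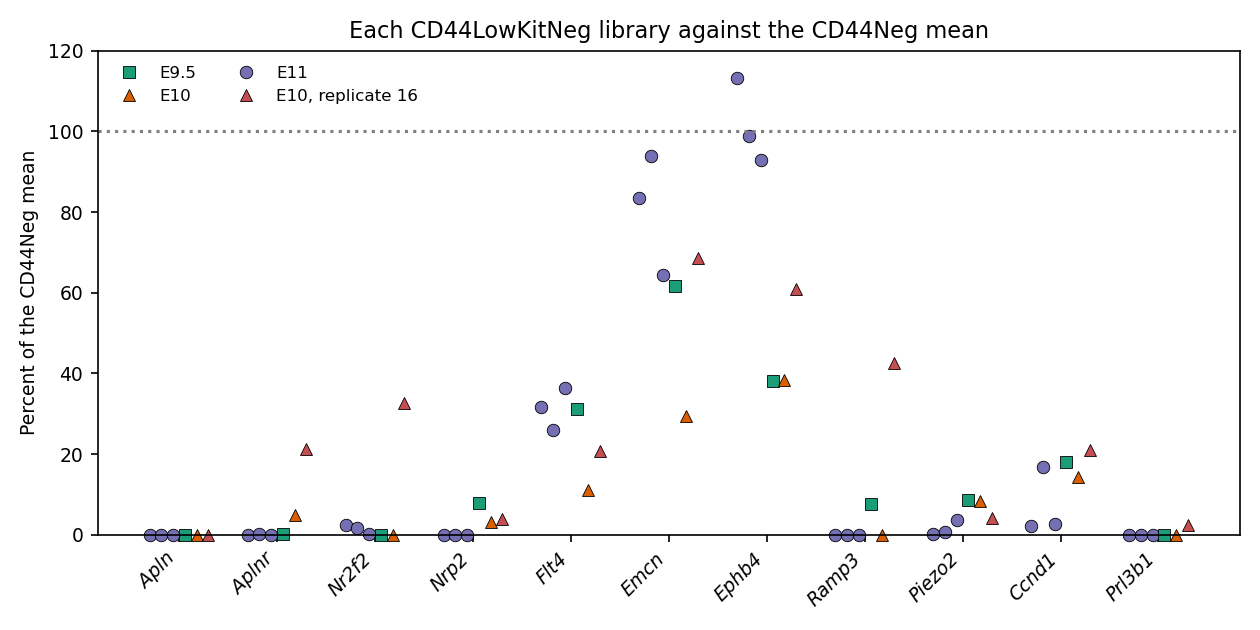
Level of *Apln*, *Aplnr*, the 5 venous genes and 4 genes of like pattern in each of the 6 CD44LowKitNeg libraries, as a percentage of the CD44Neg mean (dotted line at 100). Symbols give the stage, and replicate 16 is in red, with 21.3% for *Aplnr* and 32.6% for *Nr2f2* but 0% for *Apln*.

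Genes known from tip cells and from low oxygen, the settings in which apelin is best known, were examined next. Of 21 tip-cell genes, 1 was higher and 2 lower in CD44LowKitNeg (median 0.14), against 10.2% called among all genes. *Kcne3*, a potassium channel subunit, fell from 211 ± 142 normalized CPM to 3.08 ± 4.95 (−6.04, SE 0.92, edgeR adjusted p = 1.5e-04), *Flt4*, which is also among the venous genes, was the other lower gene, and *Vegfc*, a growth factor of lymphatic and venous vessels, was higher (1.76, SE 0.25, adjusted p = 9.0e-05). Within CD44Neg, *Trp53i11*, *Igfbp3* and *Col4a1* rose from E9.5 to E11 by 3.63 (SE 0.57), 2.52 (SE 0.38) and 0.95 (SE 0.17) on the log2 scale, the 3 called of these 21 genes (0.391% of all genes were called higher), whereas *Apln* was not called. Each of these calls was lost in the fit of all 22 libraries, with adjusted p-values of 0.0307 for *Igfbp3*, 0.0325 for *Trp53i11* and 0.442 for *Col4a1*, and on leaving out any of replicates 1 to 4. That of *Trp53i11* was also lost without replicate 5 and with limma voom, and that of *Col4a1* without any single library except replicate 5. Among 18 genes of the response to low oxygen, which include regulators such as *Epas1* beside targets, 2 were higher and 4 lower in CD44LowKitNeg (median −0.96). Among all genes, 4.94% were higher and 5.23% lower. *Ldha*, *Slc2a1* and *Pgk1*, genes of glucose uptake and glycolysis, fell by 1.81 (SE 0.20), 1.68 (SE 0.24) and 1.44 (SE 0.25), while *Vegfa* (3.00, SE 0.69) and *Epas1* (1.93, SE 0.32), which encodes HIF-2α, rose. The call of *Vegfa* was lost without CD44LowKitNeg replicate 12 or 13 (adjusted p up to 0.0163), with limma voom, with stage as a covariate and among the E11 libraries alone.

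Of 10 genes of other vasoactive peptide systems, 4 were higher and 0 lower in CD44LowKitNeg (median 1.16), against 4.94% higher and 5.23% lower among all genes. *Calcrl*, the receptor of adrenomedullin, rose from 293 ± 108 normalized CPM (167 to 485, n = 10) to 1838 ± 191 (1521 to 2074, n = 6), a log2 difference of 2.66 (SE 0.21, edgeR adjusted p = 4.2e-07). Its partner *Ramp2*, named after its values were seen, was also higher (1.40, SE 0.30, adjusted p = 0.00257). *Ramp3*, another partner of *Calcrl* that was counted among the tip-cell genes, was at 9.24 ± 4.37 normalized CPM in CD44Neg and 0.770 ± 1.57 in CD44LowKitNeg (−3.54, edgeR adjusted p = 0.0266). It was called lower by DESeq2, by limma voom and without CD44LowKitNeg replicate 16. *Edn1*, the precursor of endothelin-1, rose from 47.3 ± 18.5 to 226 ± 134 (2.26, SE 0.33), and *Npr3*, the natriuretic peptide clearance receptor, from 45.8 ± 19.7 to 209 ± 37.1 (2.19, SE 0.25). Whether *Aplnr* differed from these receptors was not tested, as it was chosen for its own difference.

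The genes whose pattern was most like that of *Apln* over the 22 libraries were *Kbtbd11* (Pearson's r of log2 CPM 0.944), *Prl3b1* (0.942), *Lhx6* (0.929), *Cfdp1* (0.911) and *Ccnd1* (0.909), out of 12948 genes, and *Aplnr* came 15th (0.882). For *Aplnr* they were *Ccnd1* (0.921), *Ramp3* (0.913), *Piezo2* (0.895), *Prl3b1* (0.892) and *Nrp2* (0.890), and *Apln* came 7th. The libraries of a population share its level, so these r values are descriptions without a p. *Ccnd1*, which encodes the cell cycle regulator cyclin D1, was at 170 ± 31.5 normalized CPM in CD44Neg and 21.3 ± 13.8 in CD44LowKitNeg. *Lhx6*, a LIM homeobox gene, and *Kbtbd11* shared the 0 reads of *Apln* in all 6 CD44LowKitNeg libraries. *Prl3b1*, a gene of the prolactin family, was at 20.4 to 303 normalized CPM in CD44Neg and at 0 in 5 of the 6 CD44LowKitNeg libraries, with 2.30 in replicate 16. *Piezo2*, a mechanically gated channel, went from a median of 100.3 to one of 3.67. Over the 10 CD44Neg libraries alone, none of these genes was among the 5 most alike. There, *Pkp2*, *Mrm1*, *Zfp90*, *Noc4l* and *D1Ertd622e* were nearest to *Apln* (r of 0.902 to 0.877), and *Fbxo21*, *Lrrc2*, *Rdm1*, *Acaa1a* and *Ppp3cc* nearest to *Aplnr* (0.971 to 0.901). *Aplnr* ranked 3165th of 11249 genes for *Apln*, with an r of 0.198 there against 0.882 over the 22 libraries.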

How the data were processed

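RNA of 25 sorted cells per library was amplified by SMART-Seq2, tagmented and sequenced. The authors clipped the reads with the FASTX toolkit, aligned them with RNA STAR to mm10 and counted reads per gene with HTSeq; the deposited values are these raw counts per gene. Versions, annotation release and strand setting of the counting are not given in the sources used here. Samples were grouped by the population and stage in the labels. Levels shown were scaled by TMM over all 22 libraries, and for the tests TMM was computed anew on the libraries of each fit. Tests used edgeR 4.0.16 (glmQLFit, glmQLFTest, R 4.3.3; prior count 0.125) after a filter on low counts (filterByExpr, minimum count 10, total 15). Benjamini-Hochberg adjustment and a threshold of 0.01 were applied. Endothelial comparisons were fitted on their own libraries and those with CD44LowKitPos or CD44High on all 22. Correlations used log2 CPM with a prior count of 2. DESeq2 1.42.0, limma voom 3.58.1, other scaling, no filter, stage as a covariate, E11 libraries alone and leaving out each library were the alternatives. Annotation was GENCODE vM21 (GRCm38). The members and gene lists were chosen with earlier results of these data known. Named genes were the members, the 5 genes most like each, and called or leading genes of the lists. A member of these lists is not reported here.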

Additional observations from a re-analysis of the deposited data

Results flagged for a closer look

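Of 5 pairs of gene and group examined for a library far from the others, 1 stood out: *Aplnr* in CD44LowKitNeg, where replicate 16 had 108 normalized CPM and the next highest library 24.7. Its gap to that library was 0.772 of the whole range, above Dixon's critical value at the 95% level for 6 libraries. For a single normal group, chance alone sets apart about 1 in 20 examined in this way. These 6 libraries pool stages and most lie near 0, so that rate need not hold here. Replicate 16 also had the highest *Nr2f2* and *Ramp3* of the 6 and 0 reads of *Apln*, and the cause was not tested. *Ramp3* had been picked for its likeness to *Aplnr* over libraries that include replicate 16.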

How the results depend on the processing

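No paired analysis was possible because the library numbers run from 1 to 22 without repeats and no groups share them. Without single libraries, the *Apln* bound of CD44Neg over CD44LowKitNeg was 44.6 to 54.0 and the *Aplnr* ratio 18.7 to 93.2. Depth limits the low values to about 3 reads per library, and the populations with 3 libraries give wide errors.

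For CD44LowKitNeg against CD44Neg, 1746 genes were called by DESeq2's Wald test, 376 among the E11 libraries alone and 875 to 1222 without single libraries. CD44LowKitPos against CD44LowKitNeg gave 1265 (DESeq2), 1244 (limma voom), 366 (stage as a covariate) and 65 (without CD44LowKitPos replicate 17) to 687. CD44LowKitPos against CD44Neg gave 829 (DESeq2), 729 (limma voom) and 159 (without CD44LowKitPos replicate 18) to 630. CD44High gave 716 (DESeq2) and 251 (without CD44High replicate 22) to 392 against CD44LowKitPos. It gave 1334 (without CD44High replicate 22) to 2176 against CD44LowKitNeg and 1340 to 1867 against CD44Neg. The ranges for CD44LowKitPos and CD44High leave out libraries of the compared populations only, although these fits held all 22 libraries. Without a library of another population, CD44High gave up to 408 against CD44LowKitPos (without CD44LowKitNeg replicate 11). Against CD44Neg it gave up to 1889 (without CD44LowKitPos replicate 19). Within CD44Neg, E11 against E9.5 gave 279 (no filter), 429 (DESeq2), 172 (limma voom), 6 (all 22 libraries) and 8 (without replicate 1) to 98. E10 against E9.5 gave 116, 231, 22 and 0 under these settings and 0 to 3 without single libraries, and E11 against E10 gave 24, 45 and 4 under the first 3 and 0 to 1. Within CD44LowKitNeg, the stages gave 163, 558, 68 and 184, and 0 to 2. The test of whether the difference between CD44LowKitNeg and CD44Neg changed from E10 to E11 gave 190 (no filter), 121 (DESeq2) and 0 to 3.

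Without single libraries, *Apln* ran from −0.77 to 0.016 (without replicate 3) for E11 minus E9.5, −0.49 to 0.072 (without replicate 7) for E10 minus E9.5 and −0.48 to 0.30 (without replicate 3) for E11 minus E10. *Aplnr* ran from 0.38 to 0.84, 0.53 to 0.83 and −0.36 to 0.099 (without replicate 3) in these comparisons. CD44High against CD44LowKitPos, the stages of CD44LowKitNeg and the population difference by stage were not evaluated for these genes, which enter those fits, where at all, only through the groups where they are high. Pearson's r ran from −0.217 to 0.492.

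Between CD44LowKitNeg and CD44Neg, genes that were not called changed sign. *Ece1* was −0.030 with limma voom, −0.12 with stage as a covariate and −0.11 to 0.22 without single libraries. *Prcp* was −0.13 with stage, −0.049 at E11 alone and −0.12 (without CD44LowKitNeg replicate 11) to 0.19 without single libraries. *Arrb2* was −0.088 with limma voom and −0.30 (without CD44LowKitNeg replicate 15) to 0.27 without single libraries. *Klf2* was −0.0067 with limma voom, −0.15 with stage and −0.18 (without CD44LowKitNeg replicate 12) to 0.44 without single libraries. *Kit* was −0.23 to 0.046 (without CD44LowKitNeg replicate 16). The causes were not tested.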

Other observations

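*Apln* lies on chromosome X. *Xist*, the RNA of the inactive X chromosome, was at 267 ± 154 normalized CPM in CD44Neg (SD, n = 10) and 726 ± 451 in CD44LowKitNeg (n = 6), a log2 difference of 1.46 (edgeR adjusted p = 0.0213) that did not pass the threshold. Its part in the *Apln* counts was not tested.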
